A study of Mus musculus with 103 samples.

Results

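The genes described here are the enzymes and hormone genes by which the gonads make steroids and inhibins. The 10 listed genes were Star, Cyp11a1, Cyp17a1, Cyp19a1, Hsd3b1, Hsd17b1, Lhcgr, Fshr, Inha and Inhba, and they were followed through their probe sets on a mouse Affymetrix array, in ovary against other tissues. Of these, 8 genes were measured, by 10 of the 22690 probe sets on the array, among 12394 genes named by a probe set of 1 symbol. Star had 3 probe sets, and the brightest is given unless stated. Cyp19a1, the aromatase that makes oestrogens from androgens, and Lhcgr, the receptor of luteinizing hormone, were not analysed here.

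The study compared protocols that amplify and label small amounts of RNA, over 103 arrays. The tissue set held 16 arrays, 1 by each of 2 protocols for ovary, kidney, liver, brain, embryo, heart, lung and spleen RNA from a commercial mouse panel. The BIIB protocol amplified 500 pg of total RNA to biotinylated cDNA, and the one-cycle Affymetrix kit labelled 1 ug of it as cRNA. Cells labelled RAW267, flow-sorted from culture in numbers of 50 to 10000, gave 11 BIIB arrays, and flow-sorted T and B lymphocytes, pure or mixed, gave 18. A commercial universal mouse RNA gave 58 arrays by 5 protocols. The labels used here gave no age, sex, strain or cycle stage for the tissue RNAs, and nothing in them says that arrays of 1 group came from separate preparations, so each p-value is set against variation among these arrays alone, and that variation may be technical. In bulk RNA, fewer cells of a type and less of a transcript per cell cannot be told apart.

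Steroid synthesis starts when the StAR protein carries cholesterol to the inner mitochondrial membrane, where Cyp11a1 cuts off its side chain to give pregnenolone. Hsd3b1 turns pregnenolone to progesterone, Cyp17a1 makes androgen precursors in theca cells, and aromatase and Hsd17b1 in granulosa cells complete oestradiol. Follicle-stimulating hormone acts on granulosa cells through Fshr. Inha encodes the alpha subunit of inhibins and Inhba the beta A subunit, which pairs with Inha to give inhibin A and with itself to give activin A. Inhibins lower the release of follicle-stimulating hormone from the pituitary.

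Per the RefSeq gene table of GRCm38.p6, Star lies at chr8:25808474-25815982, Cyp11a1 at chr9:57998024-58027031, Cyp17a1 at chr19:46667165-46673000, Hsd3b1 at chr3:98842356-98859794 and Hsd17b1 at chr11:101077968-101081188. In the same table Fshr lies at chr17:88984952-89200675, Inha at chr1:75507077-75510366 and Inhba at chr13:16004256-16031609. The RefSeq promoter table of that build, which gives 250 bases before to 50 after a start, held 10 windows for 7 of the 10 listed genes. The 4 windows printed here belong to genes measured below that share a high signal in ovary and differ in their signal elsewhere: a mitochondrial enzyme, a progesterone-forming enzyme and the alpha and beta A subunits. Capitals mark a match to TGACG (part of the cAMP response element), AGATAA (bound by factors of the Gata4 family) or TATAAA (the core of the TATA box), on either strand. AAGGNCA, the core bound by steroidogenic factor 1, was searched too.
Cyp11a1, plus strand, chr9:57997774-57998073: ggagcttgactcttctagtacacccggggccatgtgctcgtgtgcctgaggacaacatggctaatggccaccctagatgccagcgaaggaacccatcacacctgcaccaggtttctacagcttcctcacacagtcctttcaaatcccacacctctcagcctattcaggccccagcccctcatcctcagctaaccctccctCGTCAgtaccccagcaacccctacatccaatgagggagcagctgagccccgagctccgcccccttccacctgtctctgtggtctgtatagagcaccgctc
Hsd3b1, minus strand, chr3:98859745-98860044: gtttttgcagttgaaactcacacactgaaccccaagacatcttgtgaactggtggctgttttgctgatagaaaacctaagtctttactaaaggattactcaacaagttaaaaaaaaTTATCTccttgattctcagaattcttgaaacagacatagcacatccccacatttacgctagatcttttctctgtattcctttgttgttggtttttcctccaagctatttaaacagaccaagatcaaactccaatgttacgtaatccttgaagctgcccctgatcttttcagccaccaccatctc
Inha, plus strand, chr1:75507359-75507658: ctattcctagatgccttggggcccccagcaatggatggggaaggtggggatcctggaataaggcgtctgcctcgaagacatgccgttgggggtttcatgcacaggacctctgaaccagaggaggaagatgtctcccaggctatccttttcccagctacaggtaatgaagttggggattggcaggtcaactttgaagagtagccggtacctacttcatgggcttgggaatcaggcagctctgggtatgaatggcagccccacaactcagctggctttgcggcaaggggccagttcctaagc
Inhba, plus strand, chr13:16011601-16011900: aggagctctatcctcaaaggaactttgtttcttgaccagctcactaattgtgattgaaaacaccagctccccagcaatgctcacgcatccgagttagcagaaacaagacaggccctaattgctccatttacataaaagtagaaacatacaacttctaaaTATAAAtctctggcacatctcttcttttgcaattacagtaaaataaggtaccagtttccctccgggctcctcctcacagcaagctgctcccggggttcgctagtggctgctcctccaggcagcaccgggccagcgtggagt

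The printed Cyp11a1 window held TGACG on the strand opposite to the printed one, where the capitals read CGTCA. This motif was found in 20.8% of the 32851 promoters of the table. Another Cyp11a1 window, at chr9:58014702-58015001, held none of the 4 motifs. The Hsd3b1 window held AGATAA, again on the opposite strand (TTATCT as printed), found in 11.2% of all promoters. The Inhba window held TATAAA on the printed strand, found in 13.6%. The Inha window held none of the 4 motifs. Both the Inhba and the Inha window lie inside their genes as placed above. The bases before the first base of either gene were therefore not searched. AAGGNCA, found in 20.3% of all promoters, was matched in 1 of the 10 windows, at Cyp19a1, whose windows are not printed. TATAAA was also matched in Cyp19a1 windows. These matches describe the letters of a window of 300 bases and no binding was measured.

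Every measured gene was brightest in ovary in both protocols. For all 8 genes, both ovary arrays lay above each of the 14 arrays of the other 7 tissues. The 7 genes bright enough for the test were called higher in ovary, with differences from the mean of the other tissues between 4.72 and 8.87 on the log2 scale. By the same rule, 8.83% of all 15182 probe sets tested were called higher in ovary and 6.59% lower. A gene was called where limma gave an adjusted p under 0.05 with at least a 2-fold change, fitted to log2(signal + 125) with tissue and protocol as terms and adjusted by Benjamini-Hochberg over all probe sets tested. The constant of 125 understates the change of dim genes. A gene dim in most tissues was tested only if it was bright in some, with a mean signal of at least 499.8. Star, Cyp11a1, Hsd17b1 and Inha passed only through their ovary arrays, with medians of 77.0 to 286.6 and at most 771.9 elsewhere. Their calls thus rest on the same arrays that admitted them to the test. Without the filter 8 of 8 measured genes were called higher, beside 6.17% of all probe sets. The median difference of the 7 genes was 6.78, against 0.17 over all probe sets tested.

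**Figure D1:**
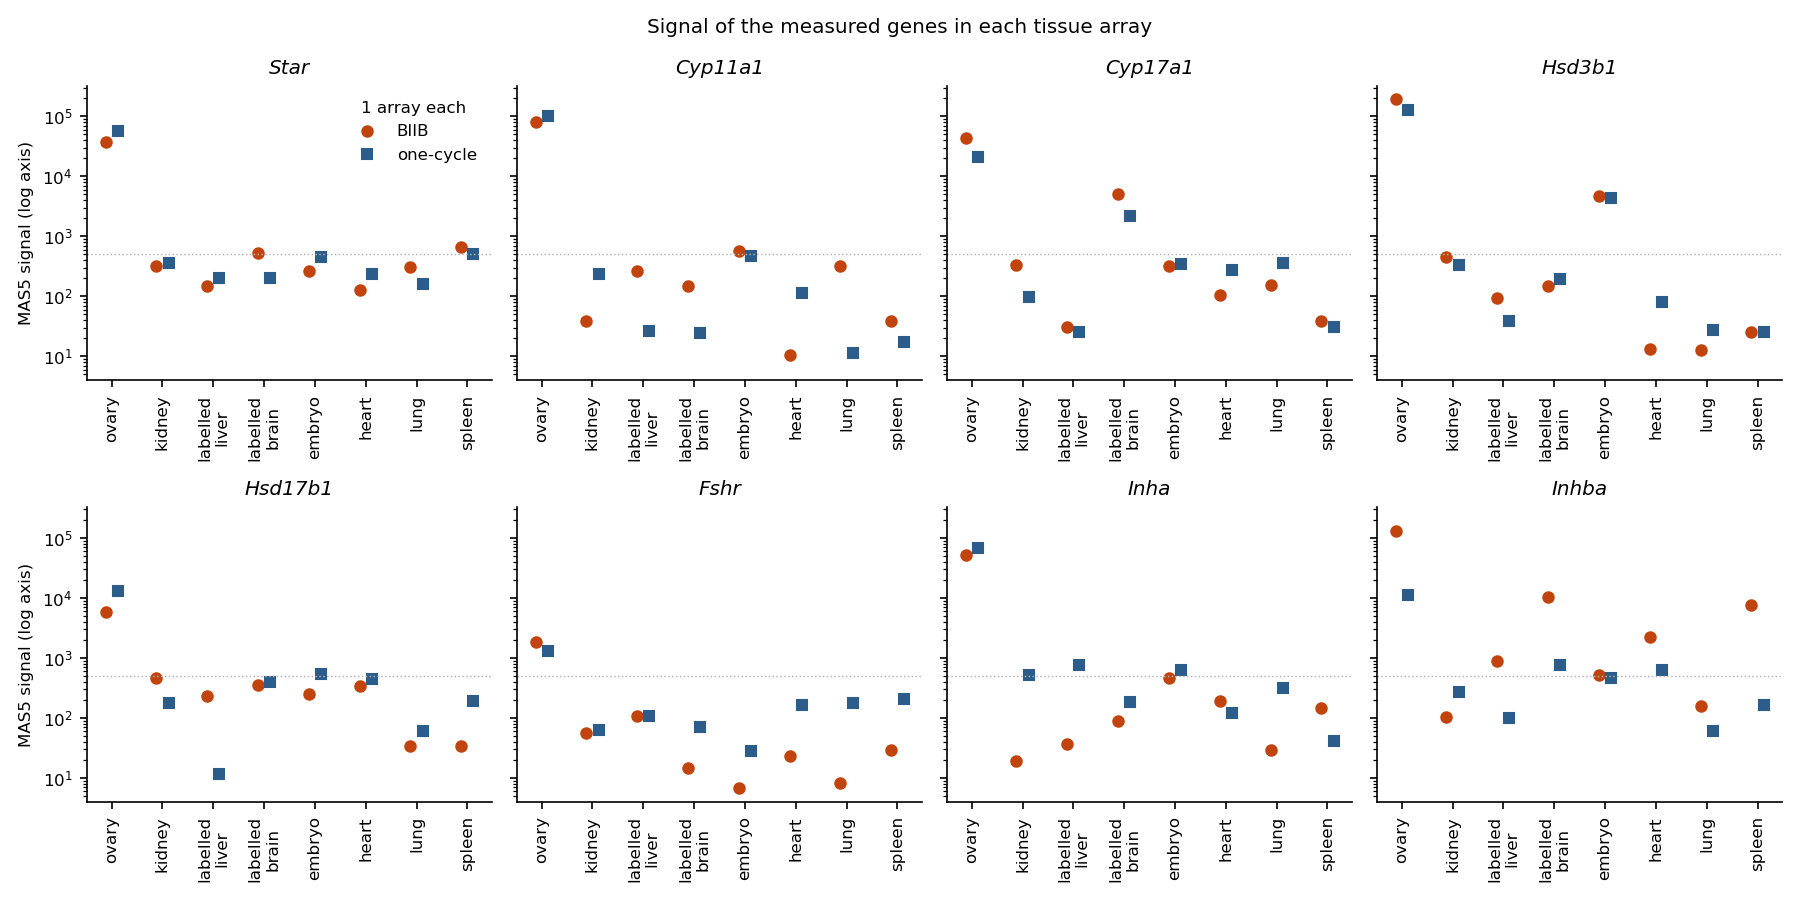
MAS5 signal (log axis) of the 8 measured genes on each of the 16 tissue arrays, by labelled tissue; circles are BIIB arrays and squares one-cycle arrays, 1 array each, and the dotted line marks a signal of 500. Both ovary points of each gene sit above all others. Cyp17a1 is also bright on the arrays labelled brain, Hsd3b1 on the embryo arrays, and Inhba on the BIIB arrays labelled brain and spleen.

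Star, which delivers cholesterol to the mitochondrion, had signals of 36854.1 (BIIB) and 57644.6 (one-cycle) in ovary, against 125.2 to 670.1 with a median of 286.6 over the other 14 arrays. The lowest ovary array was 55-fold above the highest other array, which was spleen. The difference was 6.78 ± 0.31 (SE, limma adjusted p = 3.3e-07). The other Star probe sets gave 5.75 ± 0.30 and 6.45 ± 0.56. All 3 probe sets were called higher in ovary.

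Cyp11a1, the side-chain cleavage enzyme, had signals of 79234.8 and 99886.5 in ovary by BIIB and one-cycle, against 10.6 to 572.7 with a median of 77.0 elsewhere. Both embryo arrays, at 572.7 and 476.7, were above every other tissue but ovary. The ovary arrays were at least 138-fold above all others, and the difference was 8.51 ± 0.46 (SE, limma adjusted p = 8.9e-07).

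Hsd3b1, which forms progesterone, had signals of 192057.4 and 128730.5 in ovary by BIIB and one-cycle. In embryo it had 4749.3 and 4290.5, in kidney 457.6 and 331.4, and over the other 14 arrays it ran between 12.8 and 4749.3 with a median of 87.8. Embryo came next to ovary in order, then kidney, and neither overlapped the tissue next below it. The ovary difference was 8.87 ± 0.25 against the mean of the other 7 tissues (SE, limma adjusted p = 4.7e-09) and 5.08 ± 0.33 against embryo alone. Hsd3b1 belongs to a family of very similar genes, and whether its probe set also reads relatives was not tested.

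Cyp17a1, the enzyme of androgen synthesis, had signals of 42841.9 and 20751.3 in ovary by BIIB and one-cycle, against 25.4 to 5173.4 with a median of 214.0 elsewhere. The arrays labelled brain were second, at 5173.4 and 2181.5. The difference was 6.26 ± 0.39 (SE, limma adjusted p = 1.7e-06). Against the arrays labelled brain alone it was 3.10 ± 0.51, with ovary 8.28-fold higher by BIIB and 9.51-fold higher by one-cycle.

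Hsd17b1, which makes oestradiol from oestrone, had signals of 5798.6 and 12913.6 in ovary by BIIB and one-cycle, against 11.6 to 544.8 with a median of 240.0 elsewhere. Heart, embryo and the arrays labelled brain, next in order, overlapped one another. The difference was 4.72 ± 0.42 (SE, limma adjusted p = 2.3e-05).

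Fshr had signals of 1845.9 and 1304.4 in ovary by BIIB and one-cycle, against 6.7 to 209.6 with a median of 59.4 elsewhere. Its mean over the 16 arrays was under the filter, so it was not among the genes tested. In the fit without a filter the difference was 3.13 ± 0.33 (SE, limma adjusted p = 7.3e-05), where 6.17% of all probe sets were called higher. Each of the other 7 tissues overlapped its neighbours in the order, while tissues further apart could separate, as the arrays labelled liver (108.2 to 108.7) did from kidney (56.5 to 62.4) and embryo (6.7 to 27.9).

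Inha, the inhibin alpha subunit, had signals of 51645.3 and 68332.1 in ovary by BIIB and one-cycle, against 19.3 to 771.9 with a median of 162.8 elsewhere. The lowest ovary array was 66.9-fold above the highest other array. The difference was 7.57 ± 0.51 (SE, limma adjusted p = 2.9e-06). Each of the other 7 tissues overlapped its neighbours in the order.

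Inhba, the beta A subunit, had signals of 130613.8 by BIIB and 11319.5 by one-cycle in ovary, against 61.4 to 10246.3 with a median of 488.4 elsewhere. The highest other array was labelled brain and made by BIIB, so across protocols ovary stood only 1.1-fold above it. Within a protocol, ovary was 12.7-fold above the next tissue by BIIB and 15.1-fold by one-cycle. The difference was 5.71 ± 0.81 (SE, limma adjusted p = 0.00061), with the widest error of the 7 genes tested.

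Ovary was also called higher against each other tissue taken alone, in all 49 pairs of gene and tissue. All pairs share the same 2 ovary arrays. For Star, Cyp11a1, Hsd17b1 and Inha, those arrays also admitted the gene to the test. Of all probe sets, 12.7% were called higher and 9.19% lower in ovary against kidney, 16.5% and 11.3% against the arrays labelled liver, and 24.4% and 10.3% against those labelled brain. Against embryo, 7.15% were called higher and 7.83% lower, against heart 14.4% and 9.84%, against lung 5.69% and 7.23%, and against spleen 15.9% and 9.82%. The smallest differences were those of Cyp17a1 and Inhba against the arrays labelled brain, with Inhba at 3.68 ± 1.08 (SE, limma adjusted p = 0.02). The next smallest were those of Hsd17b1, at 4.10 ± 0.56 against heart. The largest was Hsd3b1 against lung, at 10.08 ± 0.33.

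The tissue labels were checked with marker lists before these levels were read. Summed signals of 13 liver markers were 5546345 by BIIB and 2879846 by one-cycle on the arrays labelled brain, and 193248 and 147077 on those labelled liver. Summed signals of 10 brain markers were 698 and 1848 on the arrays labelled brain, and 653945 and 356972 on those labelled liver. Both pairs thus went against their labels in both protocols, and the names "labelled brain" and "labelled liver" are kept. Leaving these 4 arrays out changed the ovary differences of the 7 genes to between 4.72 and 8.66, all still called.

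On the arrays labelled brain, Cyp17a1 was called higher than in the 6 other tissues without ovary, by 3.69 ± 0.39 (SE, limma adjusted p = 1.7e-05), as was Inhba, by 2.36 ± 0.82 (limma adjusted p = 0.037). The Inhba call was lost with a constant of 1% of the array mean (2.72, limma adjusted p = 0.05). There 10.9% of all probe sets were called higher and 23.2% lower. Inhba had 10246.3 and 749.2 there by BIIB and one-cycle, the highest after ovary within each protocol. Next came spleen by BIIB, at 7564.1, and heart by one-cycle, at 629.4. Across protocols, the one-cycle value of 749.2 lay within the range of BIIB values in other tissues. On the arrays labelled liver, Cyp17a1, at 30.7 and 25.4, was called lower, by -1.57 ± 0.39 (SE, limma adjusted p = 0.0067; -0.81 and not called with a constant of 20%), where 16.1% of all probe sets were called higher and 19.2% lower. Hsd3b1 there, at 94.5 and 38.7, differed by -0.97 ± 0.26, under 2-fold (limma adjusted p = 0.0095). No gene was called higher there.

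In kidney, limma called none of the 7 genes against the 6 other tissues without ovary, where 11.1% of probe sets were called higher and 12.4% lower. At an unadjusted p under 0.05, 1 of the 7 differed. That was Hsd3b1, with 0.72 ± 0.26 (SE, limma adjusted p = 0.055). With a constant of 1% of the array mean in place of 5%, it was called, at 1.47 ± 0.39 (limma adjusted p = 0.02). The relatives Hsd3b2 and Hsd3b3 were bright outside ovary: Hsd3b2 had 12.6 and 19.3 in ovary by BIIB and one-cycle, against 6099.9 and 15008.8 in kidney, while Hsd3b3 had 17.8 and 69.0 in ovary, against 3021.9 and 14836.7 on the arrays labelled brain.

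Genes of the wider pathway were read from 6 lists. Cholesterol supply held 21 measured genes, all tested, of which 12 were called higher in ovary and 0 lower, beside 8.83% and 6.59% of all probe sets. The list's median difference was 1.36, against 0.17 over all probe sets. Scarb1, the receptor that takes up cholesterol from high-density lipoprotein, had 30310.0 and 83695.1 in ovary by BIIB and one-cycle, against a median of 1835.2 elsewhere, and rose by 4.40 ± 0.41 (SE, limma adjusted p = 2.9e-05). Dhcr7, the last step of cholesterol synthesis, rose by 3.87 ± 0.38, and Sc5d, a step shortly before it, by 2.16 ± 0.28. Ovary was not the top tissue for every one of them, and Sc5d reached 23951.4 on an array labelled brain. Cyp51 had 18143.0 and 5613.4 in ovary by BIIB and one-cycle, against 22546.1 and 13543.3 in kidney. Hmgcs1 had 188773.3 and 49044.9 in ovary, against 177347.0 and 65454.2 in kidney. Fdps, Hmgcs1 and Cyp51, of the earlier synthesis steps, rose by 2.72 ± 0.32, 1.99 ± 0.37 and 1.55 ± 0.24, and these 3 calls were lost without the protocol term.

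Of the redox partners that pass electrons to steroid P450 enzymes, 3 were measured and 1 was called higher, beside 8.83% of all probe sets. Fdx1, the ferredoxin that serves Cyp11a1, had 107255.1 and 149794.6 in ovary by BIIB and one-cycle, against 1754.6 to 38672.2 elsewhere. It rose by 3.61 ± 0.24 (SE, limma adjusted p = 2.2e-06).

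Other steroid-modifying enzymes split. Of 29 measured genes, 22 were tested, and 6 were called higher and 6 lower, beside 8.83% and 6.59% of all probe sets, with a median of -0.11. Akr1c18, which inactivates progesterone in the corpus luteum, had 300452.7 and 141002.1 in ovary by BIIB and one-cycle, against a median of 216.0 and at most 9067.9 elsewhere. It rose by 8.57 ± 0.37 (SE, limma adjusted p = 1.9e-07). Akr1cl, of the same enzyme family, rose by 8.76 ± 0.52. Hsd17b7, which acts on oestrone and in cholesterol synthesis, rose by 4.49 ± 0.45. Cyp1b1, which hydroxylates oestradiol, rose by 3.20 ± 0.34. Akr1c14, of the aldo-keto reductases, and Hsd11b2, which inactivates glucocorticoids, rose by 2.54 ± 0.38 and 2.35 ± 0.35 but were brighter still in kidney. Hsd11b1, which reactivates glucocorticoids, had 676.4 and 1610.7 in ovary by BIIB and one-cycle, against 54724.5 and 131764.2 on the arrays labelled brain. It fell by 2.91 on the log2 scale (SE 0.30, limma adjusted p = 6.6e-05). Akr1c6, Hsd17b6 and Akr1d1, also called lower, were each brightest on the arrays labelled brain. Without those and the arrays labelled liver their means were under the filter. The Akr1d1 call was lost in 5 alternatives, and those of Akr1c6 and Hsd17b6 in 1 each. Hsd3b2 fell by 1.86 on the log2 scale and Hsd3b3 fell by 1.91. The Hsd3b2 call was lost in 3 alternatives (limma adjusted p up to 0.15) and the Hsd3b3 call in 2 (up to 0.28), each time without an ovary array or without the protocol term.

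Of 14 measured transcription factors and steroid receptors, 8 were tested, 5 were called higher and 0 lower, beside 8.83% and 6.59% of all probe sets. Dim genes enter this test through the tissue where they are bright, and without the filter 8 of 14 were called higher, beside 6.17% of all probe sets. Nr5a1, steroidogenic factor 1, had 6410.8 and 4772.0 in ovary by BIIB and one-cycle, against 3.7 to 579.3 elsewhere. It rose by 4.78 ± 0.26 (SE, limma adjusted p = 8.3e-07). Nr5a2, the related factor of granulosa and luteal cells, had 9875.9 and 11917.9 in ovary, and 5150.5 and 4623.4 on the arrays labelled brain, and rose by 4.61 ± 0.35. Gata4 and Gata6, factors of granulosa cells and heart, rose by 2.42 ± 0.39 and 2.11 ± 0.35 against the mean of the other tissues. Gata4 had 1668.3 and 3778.3 in ovary by BIIB and one-cycle, against 2216.8 and 4822.8 in heart. Gata6 had 4137.0 and 5041.0 in ovary, against 5419.9 and 2995.6 in heart, and its call was lost without the one-cycle ovary array (limma adjusted p = 0.053). Nr4a1, an immediate early factor, had 755.4 and 4191.9 in ovary by BIIB and one-cycle, against 1336.1 and 8544.8 in lung. Against the mean of the other tissues it rose by 1.45 ± 0.36, a call lost without either ovary array.

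Of 18 measured genes of activin and inhibin signalling, 12 were tested, 3 were called higher and 0 lower, beside 8.83% and 6.59% of all probe sets. Without the filter 4 of 18 were called higher, beside 6.17% of all probe sets. Inhbb, the beta B subunit, had 5073.8 and 20223.2 in ovary by BIIB and one-cycle, against 35.5 to 1923.8 elsewhere, and rose by 4.20 ± 0.30 (SE, limma adjusted p = 4.4e-06). Fst, follistatin, which binds activins, had 12056.5 and 7487.4, against 75.2 to 2200.6, and rose by 4.09 ± 0.29. The third was Bmpr1a, a receptor of bone morphogenetic proteins, at 1.01 ± 0.25, whose call was lost in 12 alternatives.

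Of 17 measured hormones and hormone receptors of the ovary, 8 were tested, 5 were called higher and 0 lower, beside 8.83% and 6.59% of all probe sets, with a median of 1.58. Without the filter 6 of 17 were called higher, with a median of 0.59. Ptgfr, the receptor of prostaglandin F2 alpha, which drives regression of the corpus luteum, had 43803.5 and 24855.3 in ovary by BIIB and one-cycle, against 6.0 to 1081.2 elsewhere. It rose by 6.32 ± 0.40 (SE, limma adjusted p = 1.9e-06). Timp1, an inhibitor of metalloproteinases, rose by 4.65 ± 0.50 and Mrap, an accessory protein of the corticotropin receptor, by 3.79 ± 0.36. Kitl and Igf1, growth factors of the follicle, rose by 1.62 ± 0.28 and 1.55 ± 0.43. The Kitl call was lost in 2 alternatives (limma adjusted p up to 0.34) and the Igf1 call in 4 (up to 0.23). Kitl had 3399.1 and 9234.3 in ovary, against 6791.4 and 18840.2 in lung, and Igf1 had 5625.6 and 4926.0 in ovary, against 37014.7 and 49791.5 on the arrays labelled brain.

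**Figure D2:**
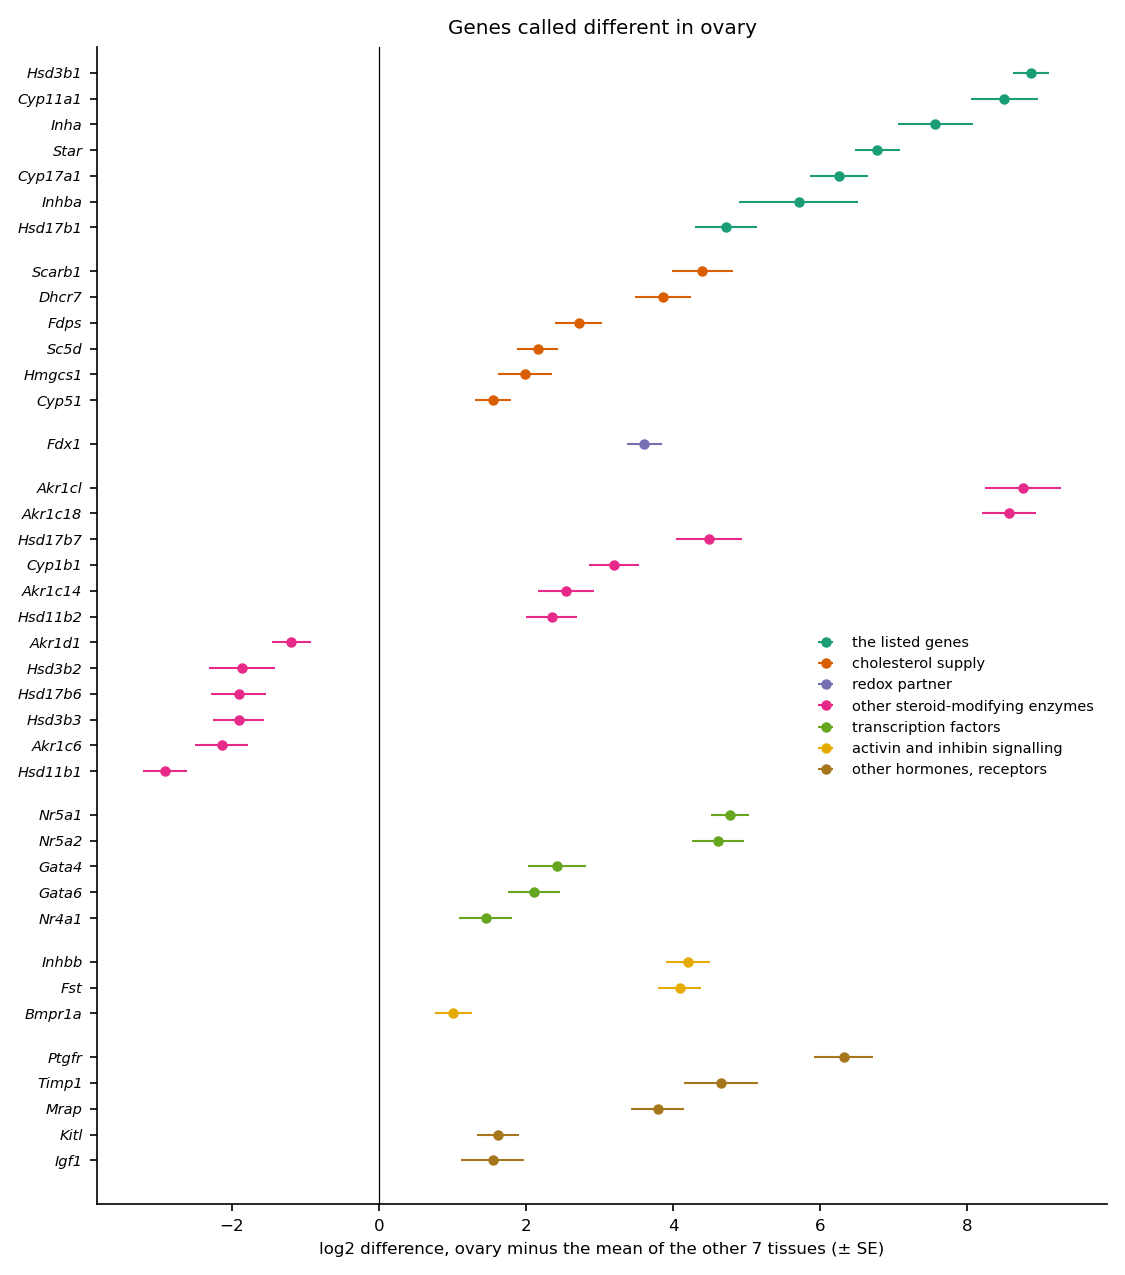
Difference on the log2 scale (points, with SE bars) between ovary and the mean of the other 7 tissues, for the 7 called listed genes and for called genes of the 6 pathway lists, up to 6 each way per list. The listed genes lie between 4.72 and 8.87, and the genes to the left of 0 are enzymes bright on arrays labelled brain or in kidney.

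Marker lists of several cell types and tissues were summed too, and some but not all were higher in ovary. Granulosa and luteal markers, 8 of 10 measured, summed to 379600 by BIIB and 194581 by one-cycle in ovary, against 1417 to 31426 elsewhere. Most of this was Akr1c18 and Ptgfr, which are also described above. Amhr2, at 3273.8 and 3333.5, and Esr2, at 1414.0 and 2847.7, had at most 350.6 and 328.5 elsewhere. Parm1, at 8773.3 and 1840.7, was below heart, at 29662.9 and 9411.0. Amh had 57.0 and 1247.9, against at most 464.3 elsewhere. Oocyte markers, 10 of 14 measured, summed to 16863 and 18825, against 651 to 2359. By BIIB, Bmp15, Zp1 and Dppa3 had 8.0, 415.6 and 571.1 in ovary, against at most 208.5, 821.0 and 713.8 elsewhere. By one-cycle, Figla had 397.3 in ovary, against at most 447.3 elsewhere. In the other protocol each of these was above all other tissues, as were the remaining measured oocyte markers in both. Oviduct and uterus markers, 6 of 6 measured, summed to 89776 and 80271 in ovary, against 446 to 4188. Most of this was Ovgp1, the oviduct glycoprotein, at 81881.2 and 67761.3, with Sprr2f at 6991.8 and 8639.6. Foxj1 had 291.0 and 2251.0, against at most 768.5 elsewhere. Msx1 had 227.7 and 554.9 in ovary by BIIB and one-cycle, against 5.8 and 931.9 in embryo. Hoxa11 had 276.0 and 567.9 in ovary, against 173.6 and 827.2 in kidney, so the order of both genes turned with the protocol. Hoxa10 had 133.4 and 476.1 in ovary, against 647.8 and 2050.8 in kidney. Fat markers, 4 of 6 measured, summed to 65662 and 105729, against 155 to 72391. Adipoq and Retn were brightest in ovary, while Fabp4 and Lep were brighter in heart in both protocols. Lep had 7.3 and 51.3 in ovary by BIIB and one-cycle, against 413.0 and 282.7 in heart. Adrenal cortex markers, 4 of 6 measured, summed to 10522 and 13859, against 322 to 4684, almost all of it Mrap, with Cyp11b2 at 106.1 and 199.3 and Cyp21a1 at 32.0 and 641.7. Placenta markers, 4 of 7 measured, summed to 186 and 234 in ovary, against 119 to 927. Leydig cell and testis markers, 6 of 7 measured, summed to 5117 and 1125, against 1009 to 26495. The part of oviduct, uterus, fat or oocytes in the ovary levels was not tested.

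Across the 16 tissue arrays, the 7 genes tested followed one another to different degrees. The Pearson correlation of log2 signals was 0.953 between Star and Cyp11a1 and 0.9371 between Cyp11a1 and Hsd3b1. Inhba was the loosest, with 0.6241 to Hsd3b1 and 0.757 to Cyp17a1. All such values are set largely by ovary against the rest and by arrays shared between genes. The gene most like Star was Ovgp1 (0.9713), the one most like Cyp11a1 was Sprr2f, a gene of the uterine epithelium (0.9623), and the one most like Cyp17a1 was Nr5a2 (0.9463). For Hsd3b1 it was Prss35 (0.9330), for Hsd17b1 Serpina5 (0.9120), for Inha Akr1cl (0.9536) and for Inhba Serpina3a (0.8474).

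The protocols were set against each other within each tissue. Of the 7 genes tested, Inhba was the 1 called, higher by BIIB than by one-cycle by 1.95 ± 0.54 over the 8 tissues (SE, limma adjusted p = 0.0079), where 12.3% of all probe sets were called higher by BIIB and 24.4% lower. BIIB was higher in 7 of 8 tissues for Inhba, with differences from -0.79 in kidney to 4.74 in spleen, where it had 7564.1 by BIIB and 163.4 by one-cycle. Inha moved the other way, at -0.80 ± 0.34 and lower by BIIB in 6 of 8 tissues, without passing the test (limma adjusted p = 0.06). The other 5 genes differed by -0.15 to 0.26. The other Star probe sets gave 1.37 ± 0.37 (limma adjusted p = 0.0067) and 0.00 ± 0.20 against -0.02 ± 0.21 for the brightest, so they did not share a protocol difference. Array medians were 432.0 to 624.2 by BIIB and 591.9 to 973.7 by one-cycle, and their part in this was not tested.

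**Figure D3:**
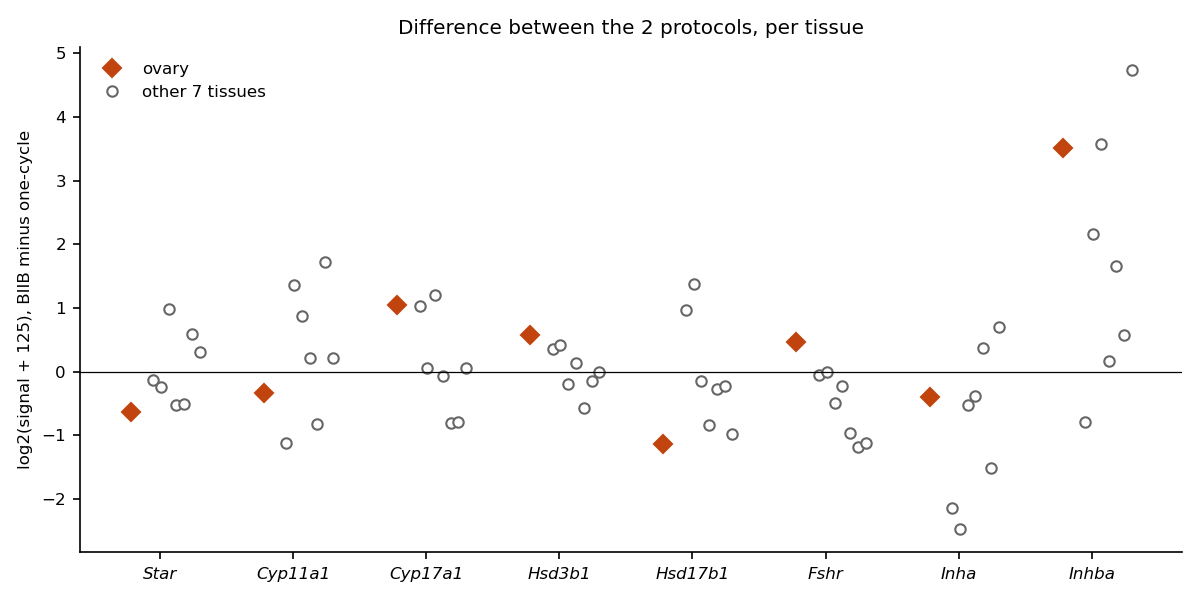
Difference in log2(signal + 125) between the BIIB and one-cycle arrays of 1 tissue, for the 8 measured genes; diamonds are ovary and open circles the other 7 tissues, 1 pair of arrays each. Inhba lies above 0 in 7 of 8 tissues and reaches 4.74, while the genes other than Inhba scatter around 0 or below it.

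Whether the protocol difference was itself different in ovary was tested by an interaction term. By limma 0 of 15182 probe sets were called (0% higher and 0% lower). At an unadjusted p under 0.05 there were 460, and none of the 7 genes was among them. For Inhba the term was 1.79 ± 1.62 (SE). With the protocols taken apart, the ovary difference of Inhba was 6.60 by BIIB and 4.82 by one-cycle, and that of Cyp17a1 was 6.74 and 5.79. With 1 ovary array per protocol, differences of this size were not detectable.

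The universal RNA gave Inhba with replicates. At 5 ng by BIIB, 4 arrays ran from 13784.3 to 17751.2 with a mean of 15778.2 ± 1715.5 (SD, n = 4), against 626.1 to 1446.0 with a mean of 1025.0 ± 335.6 by one-cycle at 1 ug (SD, n = 4). The groups did not overlap. The difference was 3.83 on the log2 scale, and the exact permutation p of 0.0286, two-sided, is the smallest that 4 arrays against 4 can give, or 0.0763 after Benjamini-Hochberg adjustment over the 8 genes. This comparison was added after the tissue difference was seen. RiboAmp HS gave 3246.0 to 5833.2 and two-cycle 1875.8 to 3002.0 at inputs of 500 pg to 500 ng, and at 50 pg they gave 1950.8 and 3614.6, and 939.0 and 9881.8. Ovation gave 378.0 to 1277.4 at 5 ng and more, and 54.7 to 131.7 at 500 pg and 50 pg.

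With less RNA in the BIIB protocol, Inhba spread more widely between arrays. At 10 pg its signal ran from 70.1 to 6955.2, at 50 pg from 842.3 to 32753.2 and at 100 pg from 3316.6 to 29741.2. At 500 pg it ran from 10874.1 to 23685.9 and at 1 ng from 12059.8 to 25533.3. The fitted change from 10 pg to 5 ng was 3.82 ± 0.96 (SE, limma adjusted p = 0.0057), in a set where 25% of probe sets were called higher with more RNA and 1.5% lower, with a median of 0.82. Without the 10 pg arrays it was 1.56 ± 1.02 and not called (limma adjusted p = 0.37). Of the other listed genes, only Star was bright enough to be tested, at -1.16 ± 0.57 (limma adjusted p = 0.13).

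**Figure D4:**
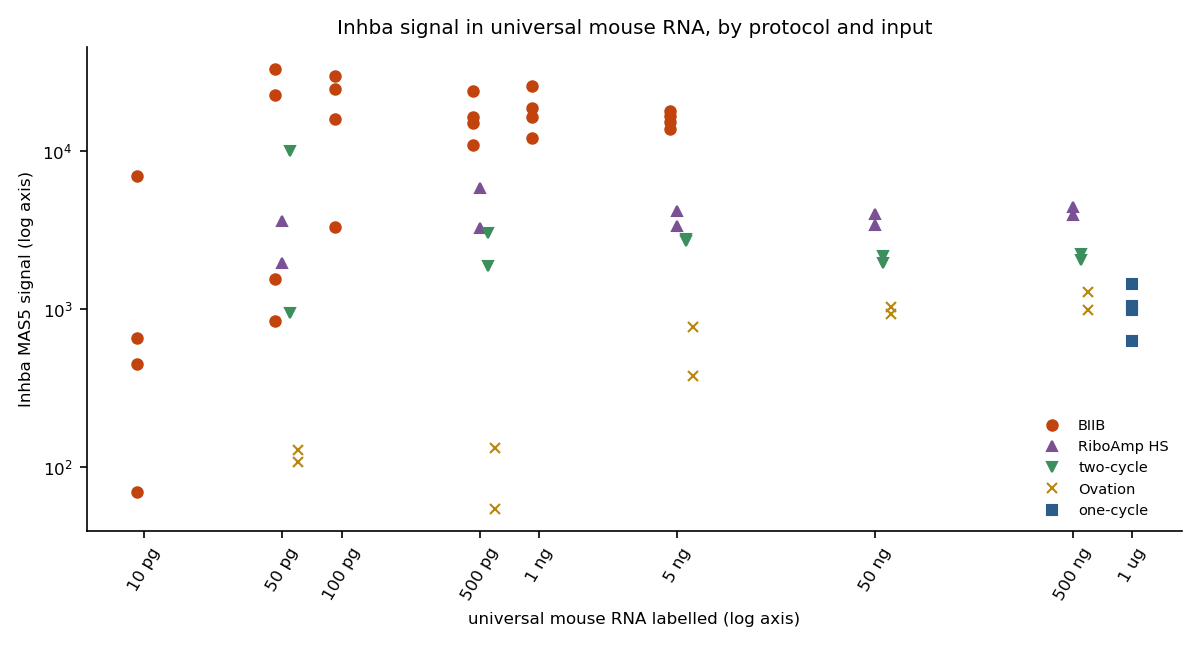
Inhba MAS5 signal (log axis) against the amount of universal mouse RNA labelled (log axis), 1 point per array, by protocol. BIIB arrays of 500 pg and more lie above 10000, those of 10 pg scatter between 70.1 and 6955.2, and the 4 one-cycle arrays at 1 ug lie between 626.1 and 1446.0.

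The other 7 genes were dim in universal RNA by one-cycle at 1 ug and by BIIB at 5 ng. By one-cycle, Star ran from 126.4 to 187.3, Cyp11a1 from 14.2 to 62.3, Hsd3b1 from 27.4 to 54.1 and Inha from 432.6 to 715.8. By BIIB at 5 ng, Star ran from 235.3 to 365.5 and Inha from 25.8 to 318.0, and neither overlapped its one-cycle range (exact permutation p = 0.0286 each, 0.0763 adjusted over the 8 genes). Single bright values appeared at small inputs. Star reached 5437.7 in 1 BIIB array of 10 pg and 10874.7 in 1 Ovation array of 500 pg, whose partner had 234.0. By RiboAmp HS at 50 pg, Cyp11a1 had 1380.2 and 8617.8 and Cyp17a1 had 195.3 and 4972.6. By two-cycle at 50 pg, Hsd3b1 had 477.6 and 4190.2 and Inha had 62.0 and 3891.3.

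In RAW267 cells all 8 genes were low. Median signals over the 11 arrays were 328.5 for Star, 32.0 for Cyp11a1, 59.0 for Cyp17a1, 38.1 for Hsd3b1, 314.9 for Hsd17b1, 17.5 for Fshr, 76.8 for Inha and 79.3 for Inhba. The highest single value was 1764.3, for Hsd3b1 in 1 array of 500 cells. Each gene's median rank within its array lay between the percentiles 6.1 and 41.7 in RAW267 cells, against 62.7 to 99.9 in ovary. The sum of 12 macrophage markers was 452917 to 932077 in RAW267 arrays and 3624 to 112219 in lymphocyte arrays.

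Against lymphocytes, 5 of the 8 genes passed the filter, and they passed it through the lymphocyte arrays, where they were higher. Limma called these 5 lower in RAW267 cells, where 31.8% of all probe sets were called lower and 16.8% higher. Without the filter 6 of 8 were called lower, with Inha at -0.34 and Fshr at -0.89 not called, where 35.8% of all probe sets were called lower and 12.5% higher and their median was -0.68. Inhba had 12.5 to 390.9 with a median of 79.3 in RAW267 cells, against 111.8 to 2386.7 with a median of 1210.3 in lymphocytes, and fell by 2.35 on the log2 scale (SE 0.35, limma adjusted p = 1.3e-06). The groups overlapped. The other 4 genes fell by 1.54 (Star) to 1.79 (Cyp17a1), against a median of -0.33 over all probe sets. Array medians were 367.7 to 570.2 in RAW267 cells and 775.7 to 1170.6 in lymphocytes, and with quantile normalization, which removes that gap, 1 of the 3 genes then tested was called, Inhba. Star was then -0.84 (limma adjusted p = 0.058). Star had 58.8 to 1069.2 in RAW267 cells, against 190.8 to 4667.5 in lymphocytes. Number of sorted cells, from 50 to 10000, could not be tested for these genes, since none passed the filter. Without a filter limma called 0 of 8, with 1 at an unadjusted p under 0.05. With the filter, 2.26% of all probe sets were called higher and 0.679% lower with more cells.

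**Figure D5:**
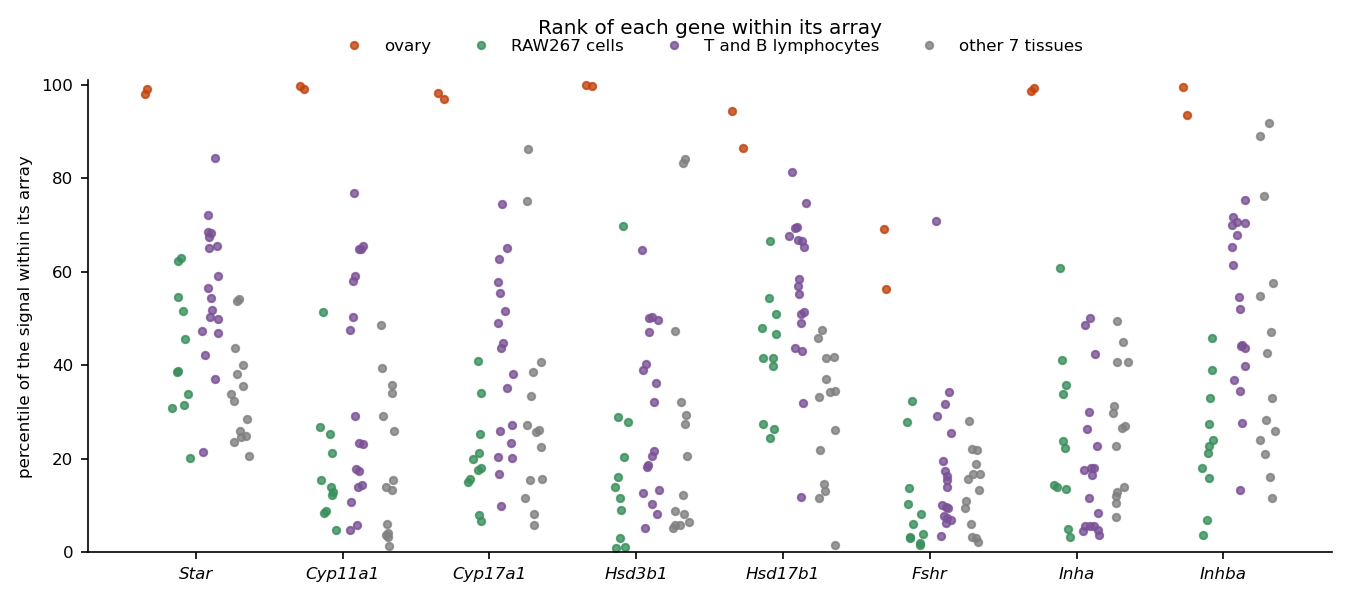
Percentile of each gene's signal within its own array, for ovary (2 arrays), RAW267 cells (11), T and B lymphocytes (18) and the other 7 tissues (14), 1 point per array. Ovary points lie at 56.3 or higher, and all genes but Fshr lie at 86.4 or higher there, while RAW267 points reach at most 69.9.

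Of 20 genes of cholesterol supply tested, 13 were called higher in RAW267 cells than in lymphocytes and 1 lower, beside 16.8% and 31.8% of all probe sets, with a median of 1.23. Fdps rose by 3.15 ± 0.35, Lss by 2.37 ± 0.44, Sqle by 2.35 ± 0.45 and Scarb1 by 2.32 ± 0.40 (SE, limma adjusted p at most 6.2e-05). With quantile normalization 14 of 20 were called higher and 0 lower. Hsd11b1 fell by 3.53 on the log2 scale (SE 0.44). Bmpr1b, a receptor of bone morphogenetic proteins, fell by 2.88 (SE 0.33) and Mrap fell by 2.23 (SE 0.43). Wt1, a factor of gonad and kidney development, fell by 2.11 (SE 0.35). Mean levels of these genes on the log2 scale were 7.38 to 8.28 in RAW267 cells and 9.49 to 11.31 in lymphocytes. They thus passed the filter through the lymphocyte arrays, and their calls rest on the same arrays that admitted them.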

How the data were processed

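The authors deposited, for each array, linear intensity values of its probe sets. MAS5 is named in the submitters' processing notes, and its version and settings are not given in the sources used here. The files hold no detection calls, and precision is limited by how few arrays there are. Each array was scaled to a common 2% trimmed mean of 2499.15 (2497.26 to 2499.94 as deposited), and log2(signal + 125) was taken, 125 being 5% of that mean. Each fit left out the 64 control probe sets and any whose mean over its arrays was under 499.8 (20%). Genes were named from the platform annotation: 20393 probe sets had 1 symbol, 691 several and 1606 none. Of these symbols, 20364 matched the RefSeq table of GRCm38.p6 and 0 changed. No 2 arrays held identical values. Tests used limma 3.58.1 in R 4.3.3 (lmFit, eBayes, two-sided, Benjamini-Hochberg over all probe sets tested), checked on simulated data. Exact permutation tests were computed in Python 3.11.15 with numpy 2.4.6. With 1 array per tissue and protocol, the 2 protocols stand in for replicates.

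The genes and lists were chosen with earlier results of these data known. Named besides the 10 genes are called genes of the pathway lists, up to 6 each way per list in ovary and 4 each way in RAW267 cells, and the genes most like each listed gene. Alternatives were other constants, filters, quantile normalization, fits without the protocol term and arrays left out. Deviations of same-numbered universal RNA arrays correlated at -0.022 to 0.33 (60 pairs, median 0.069) and those of other numbers at -0.296 to 0.193 (180 pairs, median -0.012). Since not every same-numbered pair was over 0.1, replicate numbers were not used as pairs.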

Additional observations from a re-analysis of the deposited data

Results flagged for a closer look

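In 2 of 56 groups of 4 arrays, 1 array stood apart from the others by the gap between neighbours over the range, on the scale of log2(signal + 125); chance alone flags about 1 in 20 groups. Both were Fshr in universal RNA. Replicate 1 of the one-cycle arrays at 1 ug had a signal of 342.4, against 39.9, 58.7 and 62.6 in the other replicates. Replicate 3 of the BIIB arrays at 100 pg had 253.3, against 10.1, 26.4 and 28.0. Both values are under the filter of 499.8, and their cause was not tested.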

How the results depend on the processing

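All 7 ovary calls kept their direction and stayed called in each alternative with a test, and no called value turned its direction. The number of probe sets called in ovary, 2340, was 773 without the protocol term and 795 to 2393 with single arrays left out, the lowest values, 795 and 1147, being those without the BIIB and the one-cycle ovary array. In kidney, 2119 to 2284 probe sets were called without one of its arrays, against 3571. In kidney, 1 listed gene was called with a constant of 1%, against 0. On arrays labelled liver it was 0 with 20% and 2 with 1%, against 1, and on those labelled brain 1 with 1%, against 2. The interaction called 5 probe sets with 20% and 1 with 1%, against 0. In RAW267 cells against lymphocytes, 3 listed genes were called with 20%, 2 with a filter at 40% and 1 with quantile normalization, against 5; probe sets were 5249 with 20% and 4912 with the 40% filter, against 7979. In the universal RNA trend, 3 listed genes were called with quantile normalization and 0 without the 10 pg arrays, against 1, and probe sets were 1884 and 628, against 3114. With replicate number as a block, that trend of Inhba was 3.82 ± 0.99 (limma adjusted p = 0.0082) with 3096 probe sets called, and the block changed no call. Of 1853 values under alternatives, 1759 stayed on their side of the threshold and did not turn direction in a test, 46 were no longer called, 4 became called, 29 untested values or counts moved and 15 turned direction. None of these 15 was called with either sign. In kidney, without the BIIB or the one-cycle array, the difference was 0.77 or -0.81 for Cyp11a1, -0.80 or 0.13 for Cyp17a1, -0.26 or 1.03 for Hsd17b1, 0.71 or -0.83 for Inha and 0.05 or -3.09 for Inhba. There, Cyp11a1 was 0.12 with 1% and Inha 0.01 with 20%. Cyp11a1 on arrays labelled liver was 0.05 with 1% and 0.08 with quantile normalization, and Hsd3b1 on those labelled brain was 0.21 with 1%. BIIB minus one-cycle was 0.34 for Star and 0.19 for Hsd17b1 with quantile normalization, and -0.02 for Hsd3b1 with 1%. The interaction was -0.83 for Hsd3b1 and -0.46 for Inha with quantile normalization. The cause was not tested. Dim genes, Fshr above all, are limited by signal near background.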
